A study of Mus musculus with 2 samples.

Results

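The genes described here encode subunits of AP-1, a dimeric transcription factor: the Fos-family genes Fos, Fosb and Fosl2, the Jun-family genes Jun, Junb and Jund, and Atf3, a related stress-induced bZIP factor. They were taken by symbol from the gene rows of both deposited matrices, and all 7 were found among 32285 genes. They were selected on their measured UMI levels, shares of positive cells and co-detection across these pools and surface gates, so those values are a description and no test was run on them. CITE-seq, which reads RNA and antibody tags in each cell, was run on LSK cells of the bone marrow. These lack mature lineage markers, carry Sca-1 and c-Kit, and include blood stem cells (HSCs) beside multipotent progenitors (MPPs). The control mice had been given the vehicle HBSS, and the chelator mice deferoxamine, an iron chelator, at 50 mg/kg, each daily for 7 days in every 4 weeks. Dosing began at about 6 months of age and was kept up for 13 months, so both groups were aged. No genotype or strain was given in the sources used here, and neither was the number of mice behind a pool.

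AP-1 binds DNA as a pair of bZIP proteins. Fos proteins need a Jun partner, whereas Jun proteins can also pair with each other. Fos, Fosb, Jun, Junb and Atf3 are immediate-early genes, which cells switch on within minutes of a growth factor, cytokine or stress signal through MAP kinases and without new protein synthesis. Jund is made more steadily, and Fosl2 follows later in many responses. In blood stem cells, JunB is known to restrain proliferation, and immediate-early RNA is also known to rise while tissue is dissociated and sorted.

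After filtering, 3969 control and 3998 chelator cells remained, with medians of 13705 and 14455.5 gene UMIs per cell, a UMI being 1 counted RNA molecule. There was 1 pool per condition, told apart by hashtag, and the pools shared 0 barcodes. With no replicate pool no difference could be tested across mice, and the 95% intervals below hold counting error alone. The pools differed in sex: cells with Xist were 42.1% of the sexed control cells and 26.1% of the sexed chelator cells, so the comparison of pools is repeated within each sex below. The LSK markers Kit (292 and 299.6 CPM) and Ly6a (152 and 138 CPM) were present in the control and chelator pool. CPM here means the UMIs of a gene, summed over cells and scaled to 1000000 gene UMIs in all. Summed lists of mature-cell markers stood at 7.21 and 4.89 CPM for 6 neutrophil genes, 21.4 and 22.3 CPM for 8 macrophage genes, 44.3 and 39.7 CPM for 8 B cell genes, 69.96 and 70.05 CPM for 8 endothelial and stromal genes (Col3a1 at 0 in both) and 197.5 and 189.8 CPM for 8 T and NK cell genes, with Cd3e at 0 in control. The highest of the T and NK cell genes alone stood at 184.5 and 177.6 CPM, and 3 and 2 of the 8 reached 1 CPM. Erythroid genes (10) summed to 1116.9 and 814 CPM, with Hbb-bs at 190.4 and 13.3 CPM and, in the MPP4 gate defined below, at 460.2 and 18.8 CPM. The highest erythroid gene alone stood at 648.5 and 628.7 CPM. Hbb-bs was found in 3.65% of control and 5.10% of chelator cells. In control, 35 MPP4-gate cells held 11631 of its 12042 UMIs. The part of these cells or RNAs in the results below was not tested. The 7 genes together made up 0.136% of control and 0.170% of chelator gene UMIs.

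The promoters are shown because most of these genes were detected in the same cells more often than their single shares gave, as described below, and because their inducible control is known to work through short sites close to the start. RefSeq held a promoter for 7 of 7 genes. Of each, the 150 bases up to the base before the annotated start are given on the gene's own strand, on GRCm38.p6. Capitals mark letters of the cyclic-AMP-response-element and AP-1 type. They are TGACG in Fos (129 and 66 bases before the start), Fosb (60 bases) and Junb (106 bases), TGACATCA in Jun (45 bases) and TTACGTCA in Atf3 (10 bases).
Fos, chr12:85473740-85473889, plus strand: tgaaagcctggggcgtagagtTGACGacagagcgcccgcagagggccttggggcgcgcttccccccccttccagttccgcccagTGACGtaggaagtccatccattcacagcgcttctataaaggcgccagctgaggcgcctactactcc
Fosb, chr7:19310046-19310195, minus strand: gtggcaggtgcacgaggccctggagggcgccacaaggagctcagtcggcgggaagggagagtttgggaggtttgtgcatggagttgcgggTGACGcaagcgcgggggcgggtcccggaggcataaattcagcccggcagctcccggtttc
Jun, chr4:95052223-95052372, minus strand: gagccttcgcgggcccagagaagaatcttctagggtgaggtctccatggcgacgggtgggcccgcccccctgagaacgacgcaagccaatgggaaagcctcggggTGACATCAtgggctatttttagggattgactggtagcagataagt
Junb, chr8:84978749-84978898, minus strand: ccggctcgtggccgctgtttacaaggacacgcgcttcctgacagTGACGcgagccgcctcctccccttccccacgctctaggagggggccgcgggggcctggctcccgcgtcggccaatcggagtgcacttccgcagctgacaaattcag
Atf3, chr1:191183334-191183483, minus strand: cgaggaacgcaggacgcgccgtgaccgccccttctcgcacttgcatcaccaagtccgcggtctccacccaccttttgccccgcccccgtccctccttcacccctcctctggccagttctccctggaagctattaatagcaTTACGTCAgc
Both strands were searched. TGACG occurred in 13.3% of 32851 RefSeq windows, each cut to the same 150 bases, and in 4 of the 7 members, with Atf3 counted because TTACGTCA holds it in reverse. TGACATCA occurred in 2.32% of windows and TTACGTCA in 0.368%. The full element TGACGTCA (1.36% of windows), the AP-1 site TGACTCA (2.84%) and the CArG box (0.916%) occurred in 0 of the 7 windows, which says only that these letters are not in these 150 bases. TATAAA (7.57% of windows) was present in Fos, and CCAAT (24.5%) in Jun and Junb. The windows of Fosl2 and Jund held none of the marked motifs and are not printed. The Fosb window ends at the start in the RefSeq promoter table, which lies inside the gene span of the RefSeq gene table.

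Across all LSK cells, the Fos-family genes Fos and Fosb and the Jun-family genes Junb and Jund were higher in the chelator pool, whereas Jun was level and Fosl2 and Atf3 were not separated. Fos gave 19729 UMIs or 312 CPM in control and 30925 UMIs or 465 CPM in chelator cells, a log2 ratio of 0.58 (95% interval 0.55 to 0.60). Fosb, a Fos paralogue at a far lower count, stood at 30.5 and 39.8 CPM, a log2 ratio of 0.38 (0.30 to 0.47). Fosl2, which encodes Fra-2, stood at 8.68 and 9.61 CPM, and the interval of its log2 ratio held 0 (-0.021 to 0.31). Thus the Fos genes ranged from a clear excess for Fos to no separable difference for Fosl2.

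Within the Jun family the members parted. Jund had 336 CPM in control against 451 CPM in chelator cells, a log2 ratio of 0.42 (0.40 to 0.45). Junb had 248 and 309 CPM, a log2 ratio of 0.32 (0.29 to 0.35). Jun had 422 CPM in both pools, from 26684 and 28061 UMIs, with a log2 ratio between -0.024 and 0.024. Jun, a dimer partner of Fos, was thus level between pools where Fos was not, and of the UMIs of the 7 genes Fos made up 22.9% in control and 27.4% in chelator cells, and Jun 31.0% and 24.8%. Atf3 rested on 166 and 148 UMIs, or 2.63 and 2.23 CPM, and the interval of its log2 ratio held 0 (-0.57 to 0.090).

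Of the 7 members, 3 (Fos, Fosb and Jund) were more than 25% higher in chelator cells with an interval that left out 1, and for 0 was control higher than chelator by that rule. Among all 12513 genes with at least 200 UMIs, 1.26% were higher and 1.49% lower by that rule, and since the members were chosen with this contrast known, the shares are given for reference only. Fosb, at 1.30-fold, was just inside that limit and Junb, at 1.245-fold, just outside it. In cells with Xist taken alone, the log2 ratios of Fos, Fosb, Junb and Jund were all below 0, as given with the sexes below. The median log2 ratio was 0.32 over the 7 members and -0.0025 over the 12513 genes.

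The surface gates sort LSK cells by 3 antibody tags: CD135 (Flt3), CD48 and CD150. The HSC gate is CD135- CD48- CD150+ and held 1161 control and 1310 chelator cells, with MPP1 (negative for all 3) at 548 and 562, MPP2 (CD48+ CD150+) at 92 and 100, MPP3 (CD48+ alone) at 502 and 611, and MPP4 (CD135+ CD150-) at 1510 and 1293. The gates were set on antibody tags, and RNA was not used for them. Procr, a stem cell surface gene, stood at 181 CPM in the HSC gate and 40.2 CPM in the MPP4 gate of the control pool, and Flt3, which encodes CD135, at 7.03 and 279.8 CPM. Median depth was 12687 and 13304 UMIs per cell in the HSC gate and 14511.5 and 16505 in the MPP4 gate, for control and chelator.

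Fos, Fosb, Jun, Junb and Jund had higher levels in the HSC gate than in the MPP4 gate of both pools, by 1.58-fold to 3.59-fold. Junb, whose protein dampens Jun-driven growth, showed the widest step in the control pool, from 170 CPM in the MPP4 gate to 429 CPM in the HSC gate, a log2 ratio of 1.33 (1.28 to 1.39). In the chelator pool the widest step was that of Fosb, from 19.9 to 71.3 CPM, a log2 ratio of 1.85 (1.69 to 1.999), against 0.89 (0.73 to 1.06) in control. Fosl2 stepped by 0.44 and 0.74, and Atf3 had log2 ratios of -0.18 and -0.15 whose intervals held 0.

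The step of Fos was also steeper in the chelator pool, at 1.45 (1.41 to 1.49) against 0.92 (0.87 to 0.97) in control. Jund stepped by 1.16 and 0.86, and Junb by 1.47 and 1.33. Jun stepped by 0.68 and 0.66. Within a sex the Jun step was 0.76 in control and 0.22 in chelator cells where Xist was found, and 0.62 and 0.84 where Y-linked transcripts were. By the 25% rule, 6 of 6 members with enough UMIs were higher in the HSC gate in each pool, beside 22.4% of 10710 genes in control and 24% of 10758 genes in chelator cells. Lower by the rule were 0 members in either pool, beside 20.3% and 20.5% of genes.

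**Figure D1:**
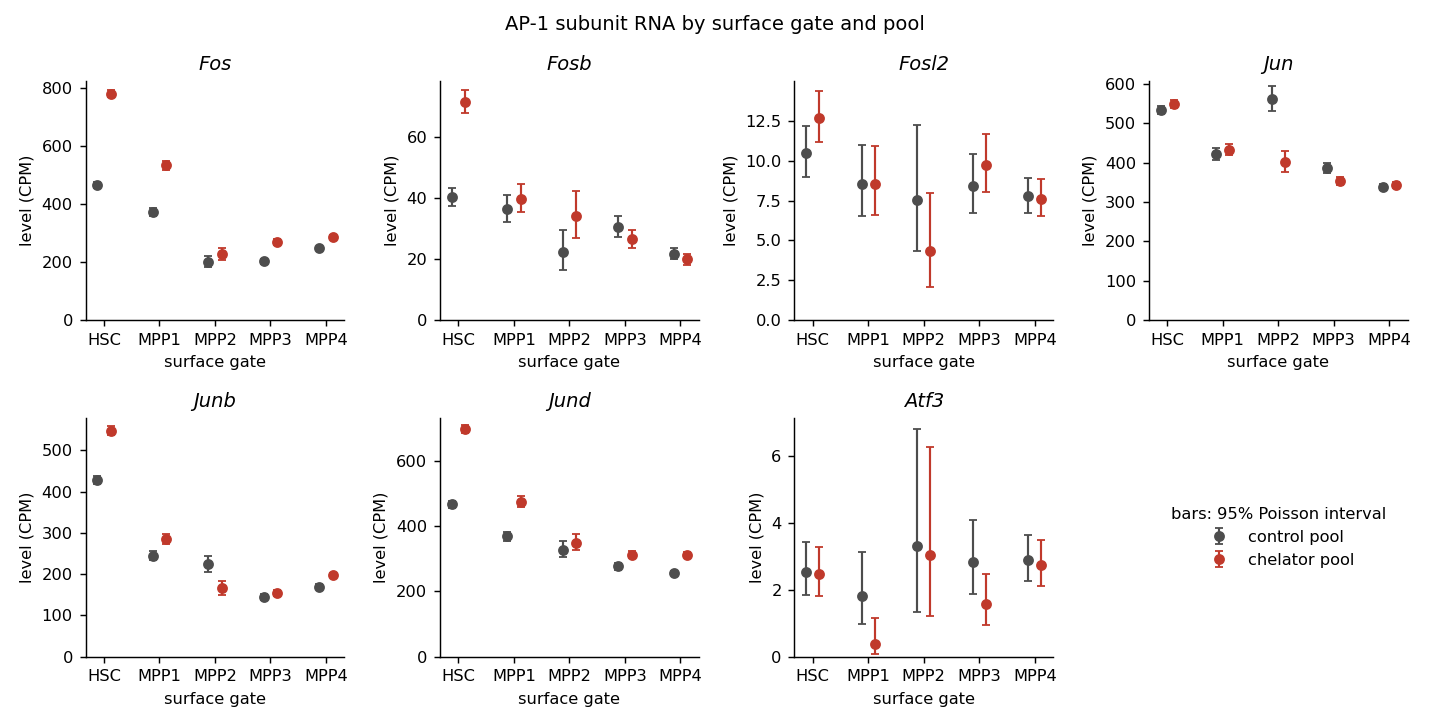
Level of each AP-1 gene in CPM (vertical axis, linear from 0) in the 5 surface gates (horizontal axis) of the control pool (grey) and the chelator pool (red), with 95% Poisson intervals that cover counting error only. Fos, Fosb, Junb and Jund are highest in the HSC gate, with the chelator pool above the control pool there, whereas Jun is at 534 and 549 CPM in that gate and its highest control level is in MPP2.

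The order of the gates differed between genes. For Fos in the control pool it ran from HSC (468 CPM) through MPP1 (372 CPM) and MPP4 (248 CPM) to MPP3 and MPP2 (202 CPM each), the last pair having overlapping intervals. In the chelator pool Fos stood at 782, 534, 287, 269.8 and 228 CPM over the same gates, and no neighbouring intervals overlapped. The order of the gates for Fos was thus the same in both pools.

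For Jund the control order was HSC (466 CPM), MPP1 (369 CPM), MPP2 (328 CPM), MPP3 (277 CPM) and MPP4 (257 CPM), and in the chelator pool MPP3 and MPP4 could not be told apart (312 and 313 CPM). Junb ran from 429 CPM in HSC to 144 CPM in MPP3 in control cells, with MPP1 (245 CPM) and MPP2 (224 CPM) overlapping, and from 547 to 155 CPM in chelator cells, with MPP2 (167 CPM) and MPP3 overlapping. Fosb in control cells was alike in HSC (40.1 CPM) and MPP1 (36.3 CPM), whose intervals overlapped, whereas in chelator cells its HSC level of 71.3 CPM stood apart from MPP1 (39.7 CPM). Fosb was lowest in the MPP4 gate of both pools, beside MPP2 in control.

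Jun broke the pattern in the MPP2 gate, which is known for megakaryocyte and erythroid output. In control cells it stood at 562 CPM there (531 to 595) against 534 CPM in the HSC gate (523 to 546), so these 2 gates overlapped at the top, above MPP1 (422 CPM), MPP3 (387 CPM) and MPP4 (338 CPM). In chelator cells MPP2 had 403 CPM and lay below the HSC gate (549 CPM). The MPP2 gate was the smallest, and its 192 cells gave 1191 and 926 Jun UMIs. The control level differed by sex: Jun stood at 769 CPM in 49 MPP2-gate cells where Xist was found, against 700.3 CPM in their HSC gate. In 29 MPP2-gate cells where Y-linked transcripts were found it stood at 304.5 CPM, below the 433 CPM of their HSC gate.

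Of the 5 gates, with the sexes pooled, the HSC gate showed the largest difference between pools for Fos, Fosb and Jund. There Fos had 468 CPM in control against 782 CPM in chelator cells, a log2 ratio of 0.74 (0.70 to 0.78). Fosb had 40.1 and 71.3 CPM, a log2 ratio of 0.83 (0.70 to 0.97), and Jund 466 and 697 CPM, a log2 ratio of 0.58 (0.54 to 0.62). Junb had 429 and 547 CPM, a log2 ratio of 0.35 (0.31 to 0.40). Each of these 4 was higher in chelator cells beyond counting error, whereas the log2 ratios of Jun (0.040), Fosl2 (0.27) and Atf3 (-0.041) had intervals that held 0. By the 25% rule 4 of 6 members were higher, beside 1.09% of 10617 genes, and 0 lower, beside 1.55%. In cells with Xist, taken as described below, the HSC-gate log2 ratios were -0.14 for Fos, -0.40 for Fosb and -0.13 for Jund. Fos was further below 0 there in the MPP1 (-0.62), MPP2 (-0.67), MPP3 (-0.36) and MPP4 gates (-0.39).

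In the other gates fewer members passed the rule. In MPP1, Fos (log2 ratio 0.52) and Jund (0.36) of 5 members were higher by the rule, beside 3.3% of genes, and 0 lower, beside 2%. In MPP3, Fos alone of 6 was higher (0.42), beside 2.46% of genes, and 0 were lower, beside 2.35%, while Jun stood at -0.13 (-0.19 to -0.064). In MPP4, 0 of 6 were higher or lower by the rule, beside 0.913% and 1.52% of genes, although the intervals of Fos (0.21), Junb (0.22) and Jund (0.28) left out 0.

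The MPP2 gate went the other way for Jun and Junb. There Jun had 562 CPM in control against 403 CPM in chelator cells, a log2 ratio of -0.48 (-0.61 to -0.36), and Junb had 224 and 167 CPM, a log2 ratio of -0.42 (-0.62 to -0.23). Jund had 328 and 349.6 CPM, and the interval of its log2 ratio held 0 (-0.056 to 0.24). Jun and Junb were 2 of 4 members lower by the rule, beside 3.91% of genes, and 0 of 4 were higher, beside 2.7%. Fosb, on 47 and 78 UMIs, had a log2 ratio of 0.61 with a wide interval (0.073 to 1.17). In the 29 control and 43 chelator MPP2-gate cells with Y-linked transcripts the log2 ratio of Jun was 0.49, opposite in sign, and without cells near a threshold that of Fosb was -0.18. Junb was lower in chelator cells in this gate and higher in the other 4, a difference between gates that was not tested. In cells with Xist alone, the log2 ratio of Junb was also below 0 in the HSC (-0.24), MPP1 and MPP4 gates, though not in MPP3. The part of sex make-up in the MPP2 value was not tested.

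Along the tags themselves, without gates, the cells of both pools together were cut into 5 equal bins per tag. From the lowest to the highest CD48 bin, Fos went from 529 to 194 CPM in control and from 929.9 to 239.8 CPM in chelator cells. Junb went from 482 to 144 CPM and from 637 to 153 CPM. Both Fos and Junb stepped down in every bin of both pools.

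Fosb went from 40.9 to 21.9 CPM over the CD48 bins in control and from 75.1 to 21.7 CPM in chelator cells. In the highest CD48 bin its level was thus nearly the same in both pools, and the excess in chelator cells lay in the CD48-low bins. Jun crossed over: in the lowest bin it had 542 CPM in control against 587 CPM in chelator cells, and in the highest 339 and 304 CPM. Jund went from 512 to 237 CPM and from 757 to 267 CPM.

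Along CD150, a stem cell marker, Fos, Fosb, Jun, Junb and Jund were highest in the top bin of both pools. Fos stood at 245, 259, 259, 327 and 510.1 CPM from the lowest to the highest bin in control, and at 297, 315, 359.7, 568 and 831 CPM in chelator cells. Junb was between 172 and 177 CPM in the lower 3 control bins and at 501 CPM in the highest. The gradient of Jun was shallower, from 332 to 596 CPM in control and from 360.4 to 582 CPM in chelator cells. Cells at the top of CD150 thus held the highest levels of all 4 plotted members.

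**Figure D2:**
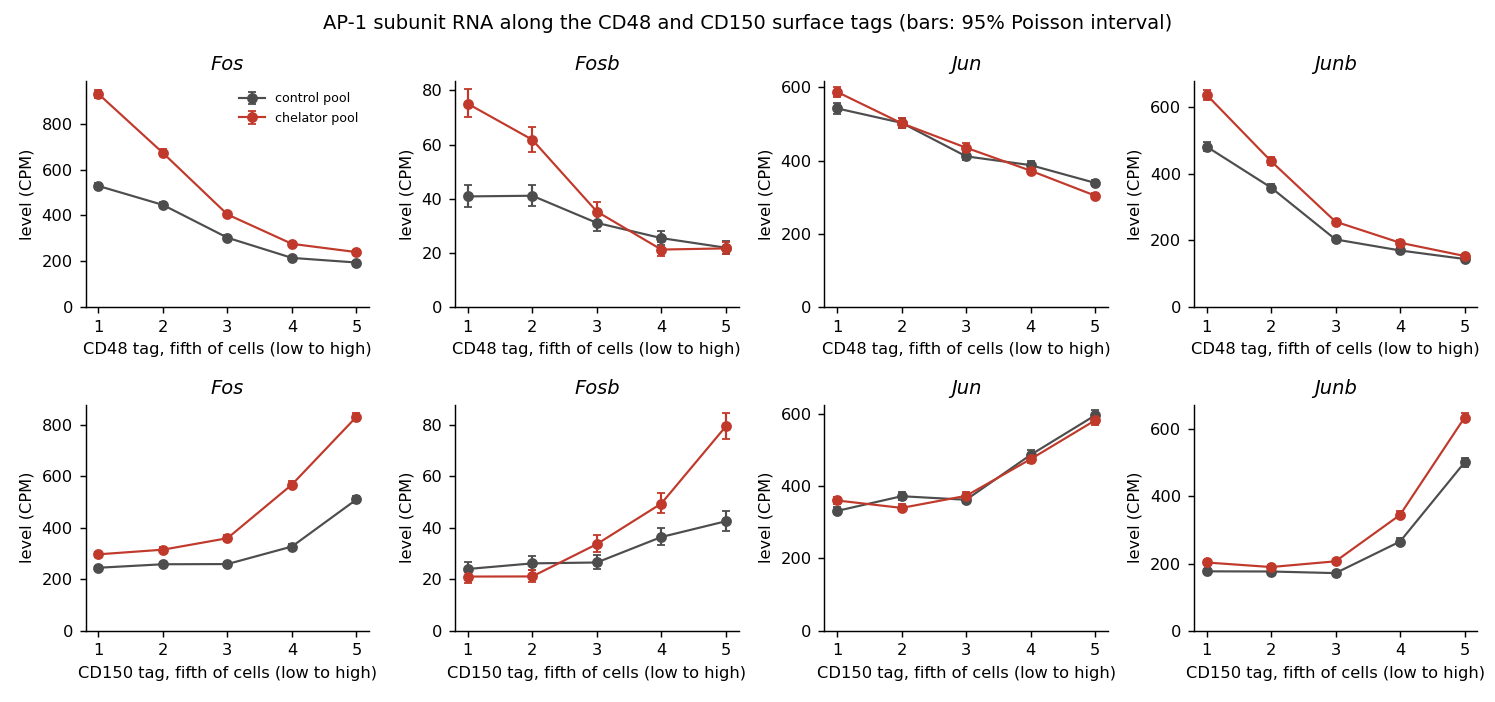
Level in CPM (vertical axis) of Fos, Fosb, Jun and Junb in 5 equal bins of LSK cells ordered from low to high CD48 tag (upper row) and CD150 tag (lower row), in control (grey) and chelator (red) cells with 95% Poisson intervals. Fos drops from 529 to 194 CPM over CD48 in control and from 929.9 to 239.8 CPM in chelator cells, and every gene shown is highest in the top CD150 bin.

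Single cells were compared after thinning each to 5000 gene UMIs, and 159 control and 138 chelator cells with fewer were dropped. In the HSC gate, cells with at least 1 Fos UMI were 56.6% of control (53.7% to 59.5%, exact Clopper-Pearson interval) and 67.0% of chelator cells (64.4% to 69.6%), and unthinned 69.3% and 78.8%. The Fos-positive cells also carried more, 4.77 and 6.76 thinned UMIs each. Both more positive cells and more UMIs per positive cell therefore lay behind the higher Fos sum of the whole gate. Within a sex this held only where Y-linked transcripts were found (51.75% and 70.2% positive when thinned, 4.53 and 7.305 UMIs each). Where Xist was found, share and amount were both lower in chelator cells (61.6% and 55.6%, 5.17 and 5.07 UMIs).

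Jund was the most widely detected, in 79.6% and 87.0% of thinned HSC-gate cells (94.4% and 96.3% unthinned), with 3.11 and 4.46 UMIs per positive cell. Junb was seen in 66.6% and 71.8% (82.2% and 88.5% unthinned). Jun was seen in 67.0% and 66.2% (81.1% and 80.0% unthinned), with 4.32 and 4.37 UMIs per positive cell. In the whole gate neither its share nor its amount thus separated the pools. Where Xist was found, both were lower in chelator cells (77.0% and 51.2%, 5.06 and 3.11 UMIs). Where Y-linked transcripts were found, both were higher (62.2% and 72.4%, 3.83 and 4.69 UMIs). In the whole gate Fosb was seen in 14.6% and 22.9% (26.8% and 40.7% unthinned) and Fosl2 in 4.98% and 6.06% (13.35% and 14.2% unthinned).

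Atf3 was seen in 0.889% and 1.02% of thinned HSC-gate cells (2.50% and 2.14% unthinned). That is in the range of S100a8, a neutrophil gene taken as a gauge of free RNA, seen in 1.64% and 1.83% of unthinned HSC-gate cells, and below Hbb-bs, a haemoglobin gene, at 4.65% and 6.26%. A share this low cannot by itself tell expression from background, so the Atf3 share is given without a reading as expression. Over all unthinned LSK cells of the control pool it was 4.09% where Xist was found and 1.18% where Y-linked transcripts were. In the chelator pool it was 2.12% and 2.24%. No sorted cell type is known to lack the other members, whose unthinned HSC-gate shares all lay above those of S100a8 and Hbb-bs.

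In the MPP4 gate Fos was seen in 42.5% of thinned control and 46.4% of chelator cells (61.0% and 65.4% unthinned), Junb in 45.1% and 51.8% (71.5% and 77.7% unthinned) and Jund in 63.9% and 66.8% (87.9% and 89.5% unthinned). Jun was seen in 58.6% and 58.5% (77.55% and 78.5% unthinned). All 4 were seen in fewer MPP4-gate than HSC-gate cells in each pool, in thinned and in unthinned cells alike. For Jun the unthinned intervals of both gates overlapped in each pool. In chelator cells with Xist its unthinned share was 75.5% in the MPP4 gate and 74% in the HSC gate.

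The spread between cells was wide. In the HSC gate the median cell had 3 Fos UMIs in control and 6 in chelator cells before thinning, the 90th percentile was 20 and 33, and the highest 59 and 98. The richest 10% of cells held 44.5% and 39.5% of all Fos UMIs. Cells with at least 10 thinned Fos UMIs were 8% of control and 16.1% of chelator cells in the HSC gate, and 2.63% and 4.47% in the MPP4 gate. With the sexes pooled, the difference between pools was thus present at the top of the distribution as well as at the step from 0 to 1 UMI. The top was not split by sex. Where Xist was found, fewer chelator than control cells of the HSC gate were Fos-positive, as given above.

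Jund was more even, with 26.7% and 26.8% of its UMIs in the richest 10% of HSC-gate cells. Its variance over its mean in thinned cells, the Fano factor, was 2.04 in control and 3.22 in chelator cells, against 6.34 and 8.76 for Fos. Jun had Fano factors of 5.32 and 5.43 and Junb of 4.18 and 4.62, so both lay between Jund and Fos in each pool.

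**Figure D3:**
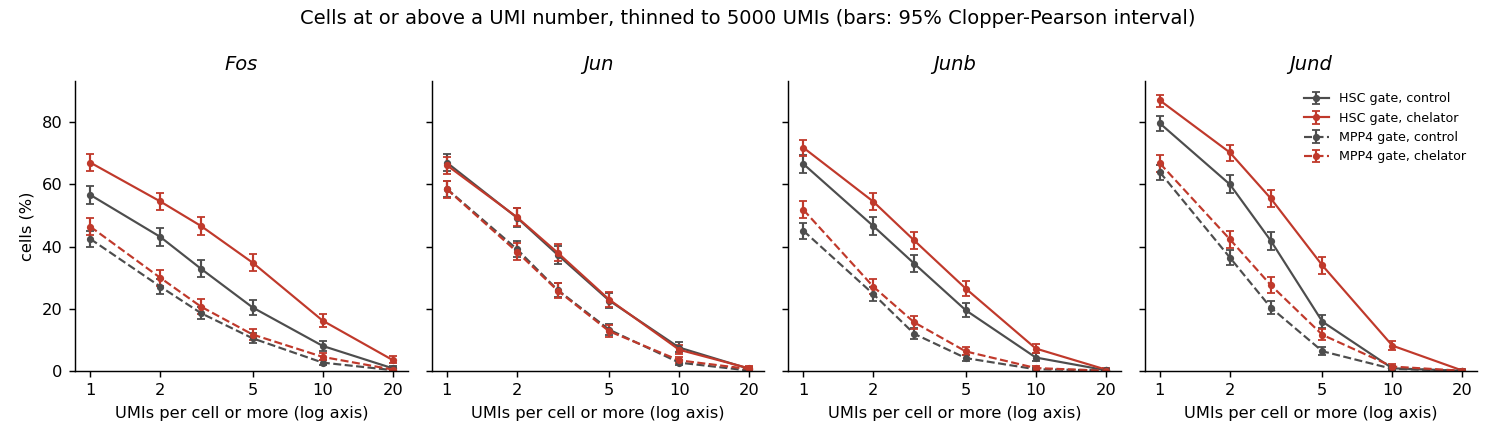
Percent of cells (vertical axis) with at least the given number of UMIs of Fos, Jun, Junb or Jund (horizontal axis, log scale) after thinning to 5000 UMIs, in the HSC gate (solid) and the MPP4 gate (dashed) of the control (grey) and chelator (red) pool, with 95% Clopper-Pearson intervals. The chelator curve of the HSC gate lies above the control curve for Fos, Junb and Jund up to 10 UMIs, and both curves of Jun lie on each other.

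Split by sex, the 6 members other than Atf3 had log2 ratios below 0 in cells with Xist and above 0 in cells with Y-linked transcripts, and for Fos, Fosb and Jun the intervals left out 0 on both sides. Cells were called by Xist, which female cells transcribe from their silenced X chromosome (1417 control and 897 chelator cells), or by transcripts of 4 Y-linked genes (1952 and 2542 cells). Fos stood at 348 CPM in control against 300.2 CPM in chelator cells with Xist, a log2 ratio of -0.21 (-0.27 to -0.16). In cells with Y-linked transcripts it stood at 263 and 506 CPM, a log2 ratio of 0.94 (0.91 to 0.98). Fos was thus higher in chelator cells with Y-linked transcripts and lower in chelator cells with Xist.

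Jun, level in the whole pools, was not level within a sex. It had 525 CPM in control against 304 CPM in chelator cells with Xist, a log2 ratio of -0.79 (-0.84 to -0.74), and 339 and 462 CPM in cells with Y-linked transcripts, a log2 ratio of 0.45 (0.41 to 0.48). Fosb followed the same pattern with log2 ratios of -0.57 and 0.73, whereas Atf3 gave -0.98 and 0.92 on 28 to 109 UMIs per group. Since Atf3 was detected in the range of the background genes, those are values with no reading as a change.

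For Junb and Jund the intervals held 0 in cells with Xist and left it out in cells with Y-linked transcripts. Junb had 260.4 and 255 CPM in cells with Xist, a log2 ratio of -0.030 (-0.087 to 0.027), and 221 and 309 CPM in cells with Y-linked transcripts, a log2 ratio of 0.49 (0.44 to 0.53). Jund had 350.3 and 347 CPM in cells with Xist, a log2 ratio of -0.012 (-0.061 to 0.037), and 310.1 and 472 CPM in the others, a log2 ratio of 0.60 (0.57 to 0.64). Whether the sexes differed in these ratios was not tested.

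By the 25% rule, 0 of 6 members were higher in cells with Xist, beside 2.87% of genes, and 2 (Fosb and Jun) were lower, beside 1.87%. In cells with Y-linked transcripts 5 of 6 were higher (Fos, Fosb, Jun, Junb and Jund), beside 1.31% of genes, and 0 lower, beside 1.68%. With both sexes weighted equally the log2 ratios were 0.40 for Fos, 0.31 for Jund, 0.23 for Junb, 0.18 for Fosb and -0.17 for Jun. Fos was then the only member past that rule.

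In the HSC gate the contrast of the sexes was wider. Fos had 537 and 487 CPM in cells with Xist (339 control and 300 chelator cells), a log2 ratio of -0.14, and 404 and 891 CPM in cells with Y-linked transcripts (609 and 812 cells), a log2 ratio of 1.14. Jun had 700.3 and 313 CPM in the former, a log2 ratio of -1.16 (-1.25 to -1.07), and 433 and 643 CPM in the latter, a log2 ratio of 0.57. Fosb stood at log2 ratios of -0.40 and 1.21, Jund at -0.13 and 0.85, and Junb at -0.24 and 0.66. All of these intervals left out 0.

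Of the HSC-gate groups, the chelator cells with Y-linked transcripts had the highest Fos, Fosb, Junb and Jund, and the control cells with Xist the highest Jun. By the 25% rule, 0 of 5 members were higher in HSC-gate cells with Xist and 2 (Fosb and Jun) lower, beside 2.32% and 3.6% of genes. In those with Y-linked transcripts 5 of 6 were higher and 0 lower, beside 1.49% and 1.81%.

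**Figure D4:**
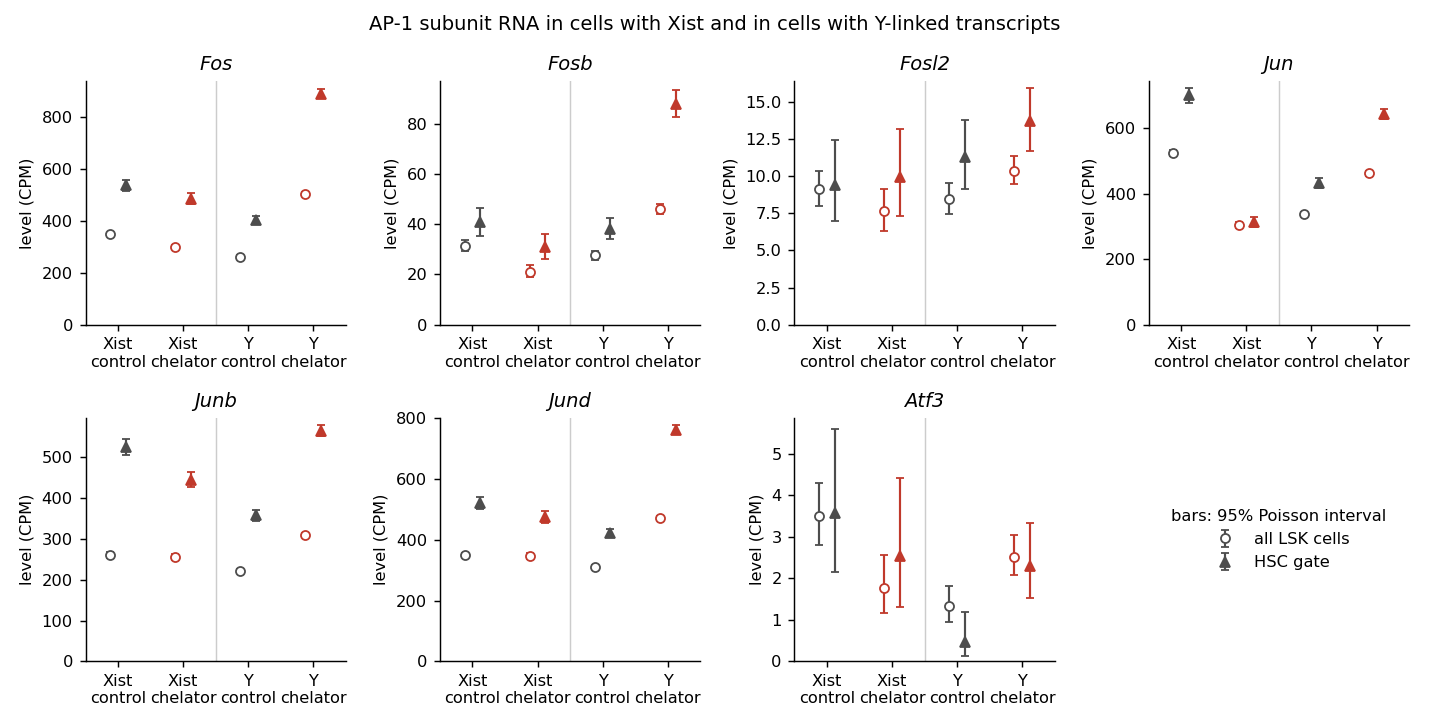
Level in CPM (vertical axis, linear from 0) of each AP-1 gene in cells with Xist and cells with Y-linked transcripts of the control (grey) and chelator (red) pool, in all LSK cells (circles) and the HSC gate (triangles), with 95% Poisson intervals. In the HSC gate Fos is at 537, 487, 404 and 891 CPM from left to right, and Jun at 700.3, 313, 433 and 643 CPM.

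Set against each other within a pool, the sexes also switched order. In control cells Fos and Jun of 6 members were lower by the rule in cells with Y-linked transcripts than in those with Xist (log2 ratios -0.41 and -0.63), beside 2.52% of genes, and 0 were higher, beside 5.75%. In chelator cells Fos, Fosb, Fosl2, Jun and Jund were higher in them (0.75, 1.12, 0.44, 0.61 and 0.44), beside 3.95% of genes, and 0 lower, beside 2.43%. The mice behind the cells of each sex are not known, so mouse and treatment cannot be told apart within a sex.

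Other measures moved along these groups. The inducible heat shock genes Hspa1a and Hspa1b together stood at 73.1 and 18.7 CPM in control and chelator cells with Xist, and at 28.2 and 7.85 CPM in cells with Y-linked transcripts. They were thus lower in chelator cells of both sexes, whereas Fos was lower in chelator cells with Xist and higher in those with Y-linked transcripts. Median depth was 15139 and 15844 UMIs in cells with Xist and 13475.5 and 14768.5 in the others, and median mitochondrial shares lay between 1.89% and 2.17%. The part of these measures in the AP-1 levels was not tested.

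Within the HSC gate Fos, Fosb, Jun, Junb and Jund were lower in cells with cell-cycle transcripts. Cells with at least 2 thinned UMIs over 12 cycling genes (312 control and 360 chelator cells) were set against cells with 0 (547 and 580). Fos had 609 CPM in the latter and 243 CPM in the former in control, a log2 ratio of -1.33 (-1.42 to -1.24), and 1017.6 and 384 CPM in chelator cells, a log2 ratio of -1.41. Junb gave -1.41 and -1.47, Jund -0.85 and -0.90, Fosb -0.82 and -0.69, and Jun -0.73 and -0.55. By the rule 5 of 5 members were lower in both pools, beside 16.6% of genes in control and 17.4% in chelator cells, and 0 were higher, beside 27.7% and 25.9%.

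For Fos, Fosb, Junb and Jund the difference between pools, with the sexes pooled, was present on both sides of this split. Fos had a chelator-over-control log2 ratio of 0.66 in HSC-gate cells with cycling transcripts and 0.74 in those without, and Jund 0.55 and 0.60. Fosb had 0.92 and 0.79, and Junb 0.25 and 0.31. Jun had 0.12 and -0.059. The split was not made within a sex. In all HSC-gate cells with Xist the log2 ratios were -0.14 for Fos, -0.40 for Fosb, -0.24 for Junb and -0.13 for Jund. The cells without cycling transcripts had lower median depth (12145 and 12479.5 UMIs, against 19113.5 and 18679.5), and its part was not tested.

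CD41, an integrin found on platelet-biased and aged stem cells, set the members little apart. Above the median CD41 tag of the HSC gate Fos had 452 CPM in control against 757 CPM in chelator cells, and below it 481 and 824 CPM. Jun had log2 ratios, high over low, of -0.066 in control and 0.16 in chelator cells, and Fosb of 0.19 and 0.29. By the rule 0 of 5 control and 0 of 6 chelator members were higher or lower, beside 5.3% and 5.71% of genes in control and 4.99% and 4.88% in chelator cells.

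Co-detection asks whether members were found in the same cells more often than their single shares give. In the HSC gate, cells with both Fos and Junb were 45.5% of thinned control cells (42.6% to 48.5%) where the single shares gave 37.7%, a ratio of 1.21, and 56.0% of chelator cells where they gave 48.2%, a ratio of 1.16. Fos and Fosb were found together in 11.02% and 19.5%, ratios of 1.335 and 1.27. Fos and Jun gave 1.11 and 1.10, and Jun and Jund 1.05 and 1.05. Such a ratio cannot exceed the inverse of the larger single share, so widely detected members leave it less room. Ratios of pairs or pools with unlike single shares are therefore not on a like scale.

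The observed share was above the product of the single shares in 21 of 21 pairs in control and 19 of 21 in chelator cells, with medians of 1.19 and 1.10. Both exceptions involve Atf3, with Fosb (2 cells) and with Fosl2 (0 cells), where too few cells were positive to show a difference. Within cells of 1 sex the counts were 19 of 21 (Xist) and 14 of the 15 pairs with a ratio (Y-linked, where Atf3 was seen in 0 thinned cells) in control, and 14 and 19 of 21 in chelator cells.

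Fos, Jun, Junb and Jund were all 4 present in 31.0% of thinned HSC-gate cells in control and 39.0% in chelator cells, where the product of the single shares was 20.1% and 27.7%. None of the 4 was present in 5.33% and 2.83%, where the product was 0.973% and 0.408%. In the MPP4 gate all 4 were present in 13.5% and 19.3%, where the product was 7.17% and 9.39%. Cells with all and cells with none were therefore both more common than the product in both pools and gates.

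**Figure D5:**
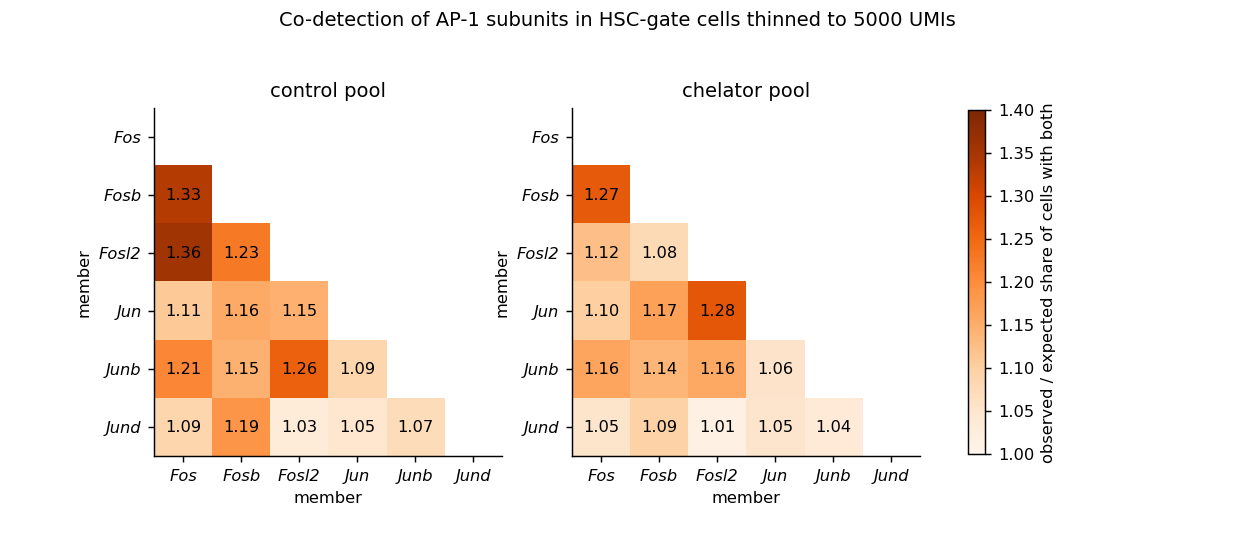
Observed share of cells with both members over the product of their single shares, for the 15 pairs without Atf3 in HSC-gate cells thinned to 5000 UMIs, in control (left) and chelator (right) cells (both axes list the members, colour and number give the ratio). Every ratio shown is above 1, the highest pair being Fos with Fosl2 in control (1.36) and Jun with Fosl2 in chelator cells (1.28).

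Across HSC-gate cells, log2 counts of Fos and Junb had a Pearson r of 0.45 in control (1125 cells) and 0.48 in chelator cells (1271 cells), and Fos and Jund of 0.30 and 0.37. Cells of a pool share a library, so these are descriptions. The genes most like the summed members over all LSK cells (3810 and 3860 thinned cells, 6621 genes compared) were Zfp36, an mRNA decay factor (r 0.51 and 0.59), the zinc-finger factor Egr1 (0.48 and 0.56), Ier2 (0.45 and 0.52), the MAP kinase phosphatase Dusp1 (0.37 and 0.42) and Ppp1r15a, a stress-response phosphatase subunit (0.33 and 0.32). Next came Ifitm1, H3f3b, Pdzk1ip1, Malat1 and Sult1a1, and the most opposite were Hmgb2 (-0.33 and -0.37), H2afz and Ptma. The gates were mixed in these correlations, and the part of gate differences was not tested. In control, each gene most alike was higher in the HSC than in the MPP4 gate. Their log2 ratios ran from 0.354 (H3f3b) to 5.75 (Sult1a1), and the most opposite genes were lower (Hmgb2 at -0.98).

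Each member had its own nearest genes, again with the gates mixed. Those of Fos were Zfp36, Egr1 and Junb (r 0.46, 0.42 and 0.40 in control), and those of Junb were Egr1, Zfp36 and Ier2 (0.47, 0.43 and 0.41). Jun was nearest to Jund, Fos and Zfp36 (0.31, 0.30 and 0.29). Jund was nearest to Fos, Egr1 and Jun (0.32, 0.32 and 0.31), and Fosb to Jund, Fos and Dusp1 (0.27, 0.25 and 0.21). For Fosl2 (Fos, Dusp1 and Junb) the r values were 0.049 to 0.072 over both pools, and for Atf3 (Tmsb4x, H2-Ab1 and Fos) 0.085 to 0.13, which in counts this sparse are no finding.

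The genes around AP-1 were read as lists over all LSK cells. Of 24 other bZIP partners with enough UMIs, 0 were higher and 1, Batf3, was lower by the rule (log2 ratio -0.79), with a list median of 0.0017. The next lowest was Maf (-0.26), and the highest were the C/EBP genes Cebpd (0.22) and Cebpb (0.12). Of 26 upstream kinases and factors, 0 were higher or lower, with a median of -0.010 and extremes at Mrtfb (0.062), the ERK1 gene Mapk3 (0.059), the JNK kinase gene Map2k4 (-0.087) and Srf (-0.089). Beside them, the shares of all genes higher and lower were the 1.26% and 1.49% given above.

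Of 20 MAP kinase feedback genes, 1 was higher by the rule, Dusp1, which switches off MAP kinases (126.2 and 172 CPM, log2 ratio 0.45), and 0 were lower, with a median of 0.067. The other genes named by rank were Ier2 (0.27), Dusp16 (-0.22) and Btg2 (-0.15). Of 16 other immediate-early genes, 3 were higher and 0 lower, with a median of 0.025, namely the orphan nuclear receptor Nr4a1 (0.83), Egr1 (0.53) and the cytokine feedback inhibitor Socs3 (0.45), while Gadd45b (-0.18) and Gadd45a (-0.15) stood at the low end. Dusp1 had log2 ratios of -0.35 where Xist was found and 0.81 where Y-linked transcripts were, as Fos did in sign, whereas Egr1 had 0.52 in each.

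Textbook AP-1 regulated genes gave 1 of 11 higher and 0 lower, with a median of 0.19. That median was 0.48 where Xist was found and -0.048 where Y-linked transcripts were, against -0.26 and 0.60 for the AP-1 members. The higher one was the matrix protein gene Spp1 (2.91 and 3.94 CPM, log2 ratio 0.44), followed by the metallothionein Mt2 (0.27), and the lowest were Gadd45a (-0.15) and Bcl3 (-0.068). Mt2 stood at 1.59 where Xist was found and -0.24 where Y-linked transcripts were, the reverse of Fos in sign. Of 12 heat shock genes 0 were higher and 3 lower, with a median of -0.10, namely Hspa1b (-2.27), Hspa1a (-2.10) and Hspb1 (-1.085), and the highest were Hsp90ab1 (0.023) and Hspd1 (0.014).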

How the data were processed

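The authors deposited 1 matrix of raw UMI counts per condition, not normalized, holding 32285 genes, 126 surface tags and 2 hashtags. Cell Ranger 7.0.0, Seurat 4.3.0 and mm10 are named in the submitters' processing notes, and Cell Ranger 7.0.1 per the file headers. No source used here says how barcodes were filtered and assigned. Each matrix was matched to its condition by the hashtag the labels pair with it, which outweighed the other hashtag in 4025 of 4026 control barcodes and in 4037 of 4037 chelator barcodes.

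A kept cell had 500 genes or more and a mitochondrial share under 10% (57 and 39 were removed), leaving 63240358 control and 66508812 chelator gene UMIs. Doublets were not called. Gates came from a mixture of 2 Gaussians per tag on centred log ratios over both pools, and 32.75% and 33.0% of cells lay within 0.25 of a threshold. A cell with Xist had at least 2 Xist UMIs and no Y-linked UMI, and a cell with Y-linked transcripts at least 1 such UMI and no Xist. Cells with at least 2 UMIs of each (35 and 52) and cells without a call (565 and 507) entered no sex. Those without a call can include cells with both markers at lower counts.

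Sums carry exact Poisson, ratios exact conditional binomial and shares Clopper-Pearson intervals, all at 95%. No p-value was computed. The share of genes past a fold covers genes with at least 200 UMIs in both groups together. Correlations used log2 of count plus 1 in thinned cells, over genes seen in at least 10% of them. Promoters and coordinates came from RefSeq tables of GRCm38.p6. Ratio intervals were tested on simulated Poisson sums, and co-detection on simulated independent and identical genes. Those draws lack the spread between cells seen here, as in the Fano factors of Fos in the HSC gate (6.34 and 8.76). They therefore do not show how well the intervals cover in these data.

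Members, lists and markers were chosen with earlier results of these data known. All members are described. The text names the genes with the 2 highest and 2 lowest log2 ratios of each list, the 10 genes most like the summed members, the 3 most opposite and the 3 nearest each member. Socs3, Hspb1 and the gauge and marker genes were named after their values were seen. The alternatives changed the cell filter (none, or 1500 genes and 5% mitochondrial), the scaling, the sex of cells and its weights, the gate weights and thresholds, the richest 1% of cells, the weight of each cell and the thinning (3000 UMIs or none). Tools were Python 3.11.15, numpy 2.4.6, scipy 1.17.1, pandas 2.3.3, scikit-learn 1.9.0 and matplotlib 3.10.9.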

Additional observations from a re-analysis of the deposited data

Results flagged for a closer look

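The results below are set apart because 2 groups of cells moved in opposite directions under the same contrast, chelator over control. The differences were not tested, since each group is 1 pool of cells, and values are log2 ratios of CPM. In all LSK cells, Fos was at -0.21 where Xist was found and 0.94 where Y-linked transcripts were, Fosb at -0.57 and 0.73, Jun at -0.79 and 0.45, and Atf3 at -0.98 and 0.92, on 28 to 109 UMIs per group and with detection in the range of background genes. In the HSC gate, Fos was at -0.14 and 1.14, Fosb at -0.40 and 1.21, Jun at -1.16 and 0.57, Junb at -0.24 and 0.66, and Jund at -0.13 and 0.85. In the MPP4 gate, Fos was at -0.39 and 0.48, Fosb at -0.95 and 0.29, and Jun at -0.62 and 0.35.

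Junb also differed in sign between gates, at 0.35 in HSC, 0.23 in MPP1, 0.11 in MPP3 and 0.22 in MPP4 against -0.42 in MPP2. In cells with Xist alone it was below 0 in the HSC (-0.24), MPP1 and MPP4 gates too, though not in MPP3. The MPP2 gate held 92 control and 100 chelator cells, with 475 and 384 Junb UMIs.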

How the results depend on the processing

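Of the log2 ratios whose interval left out 0, most of those that changed sign did so when the sexes were taken apart. Members more than 25% higher in chelator LSK cells numbered 3 of 6, against 0 in cells with Xist alone, 5 in cells with Y-linked transcripts alone and 1 with sexes weighted equally, and members lower numbered 0, against 2 in cells with Xist alone. In cells with Xist alone, log2 ratios whose interval had been above 0 fell below it. In all LSK cells these were Fos (-0.21), Fosb (-0.57), Junb (-0.030) and Jund (-0.012), and in the HSC gate Fos (-0.14), Fosb (-0.40), Junb (-0.24) and Jund (-0.13). In MPP1 they were Fos (-0.62), Junb (-0.48) and Jund (-0.12), in MPP3 Fos (-0.36) and Jund (-0.087), and in MPP4 Fos (-0.39), Junb (-0.098) and Jund (-0.080). Others, whose intervals had held 0, fell below it too: Jun in HSC (-1.16), MPP1 (-1.06) and MPP4 (-0.62), Fosb in MPP1 (-0.52), Fos (-0.67) and Jund (-0.078) in MPP2, and Fosl2 in MPP3 (-0.49) and all LSK cells (-0.26). In cells with Y-linked transcripts alone, Jun rose above 0 in MPP2 (0.49) and MPP3 (0.28). Leaving out cells near a threshold turned Fosb in MPP2 (-0.18) and Jun in MPP3 (0.025). The cause was not tested. Members higher in the HSC gate than in the MPP4 gate numbered 6 of 6 in each pool, 5 in cells with Xist alone and 6 under the other 8 alternatives. Pairs seen together more often than the product numbered 14 to 21 in control and 14 to 20 in chelator cells over 7 alternatives, the 14 in control being of 15 pairs with a ratio. The median log2 ratio of all genes, which median-of-ratios scaling subtracts, was -0.0025. Depth limits Atf3 (166 and 148 UMIs) and the MPP2 gate. No paired analysis was possible because each condition is 1 pool with no replicate number.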

Other observations

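The CD135+ CD150+ cells, which belong to none of the 5 gates (156 control and 122 chelator cells), had Fos at 290.4 CPM in control against 666 CPM in chelator cells, Junb at 285 and 481 CPM, Jund at 431 and 548 CPM and Jun at 555 and 505 CPM. Fos in the chelator cells of this group was thus between its HSC-gate and MPP1-gate levels there. Fosb stood at 49.1 and 54.3 CPM, with overlapping intervals.

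Along CD62P (P-selectin), whose tag was not used for the gates, HSC-gate cells in the lowest and highest of 5 equal bins had Fos at 563 and 328 CPM in control against 886 and 659.5 CPM in chelator cells. The bins were equal over both pools together, and the sexes were not split. The lowest held 134 control and 361 chelator cells, and the highest 322 and 172. Junb stood at 583 and 381 CPM in control against 631 and 454 CPM in chelator cells. Jun had 648 and 523 CPM in control and 599 and 574 CPM in chelator cells. Fosl1, which encodes Fra-1 and is not among the 7 genes, stood at 3.94 and 4.13 CPM in the HSC gate and 1.39 and 1.24 CPM in the MPP4 gate of the control and chelator pool.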
